A study of Mus musculus with 125 samples.

Results

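The genes described here are 8 genes read in mouse brain endothelium: Ly6a, Ly6c1 and Ly6e of the Ly6 family, B2m, H2-D1 and H2-K1 of the MHC class I complex, and the interferon-induced genes Ifitm3 and Bst2. They are 8 of the 27998 genes in the single-cell tables and were picked by symbol with their levels across brain ages in view, so those levels are given as a description with no test. Accessible chromatin at the same genes is a separate measurement and was tested.

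Ly6 proteins are small surface proteins held in the membrane by a lipid anchor, and several of them mark leukocytes, progenitors and endothelium. MHC class I molecules pair a heavy chain such as H2-D1 or H2-K1 with beta-2-microglobulin, made by B2m, and show peptides from inside the cell to cytotoxic T cells. Interferons bind surface receptors, activate STAT and IRF factors and raise genes of antiviral defence, among them class I genes, Ifitm3, which hinders virus entry at endosomes, and Bst2 (tetherin), which holds budding virus at the cell surface.

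The single-cell libraries came from 5 brain preparations, 1 from adults (2 months), 1 from P8 pups and 1 from each of the embryonic days E9.5, E12.5 and E16.5, enriched with anti-CD31 beads. Embryonic brain was digested with collagenase, and P8 and adult cortex with a neural tissue kit. The chromatin libraries were 66 ATAC-seq preparations of nuclei, 37 labelled endothelial and 29 labelled input, taken at E12 from brain, heart and trunk, and at P6 and in adults of 2 months from kidney, liver, lung, heart, retina and brain. Endothelial groups held 2 to 4 libraries per organ and age and input groups 1 to 3; all groups, inputs included, came from mice given tamoxifen (0.015 mg/kg) and kept only where vessels carried GFP. For E12 the dam was injected at E10.5, P6 pups were injected at P1 and P3, and adults 7 days before collection. Strain, Cre driver and reporter allele are not given in the sources used here, and the labels' protocol places collection of the P6 group at P7. Nothing in the labels says whether replicates came from separate animals, so p-values measure the spread between these libraries, which may be technical.

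The single-cell libraries fall into sets that the ages do not explain. The barcodes of E12.5 and E16.5 come from one kind of barcode list and those of E9.5, P8 and adult from another, although the labels name 1 kit for all. Folds are therefore given within a set, E16.5 over E12.5, P8 over E9.5 and adult over P8, and the steps from E9.5 to E12.5 and from E16.5 to P8 cross the sets. The step from E16.5 to P8 also changes whole brain to cortex and the dissociation method, and so does P8 over E9.5, although those 2 libraries share a set. The deposited file of the library labelled E16.5 is named for a later embryonic day, and the label is used here. Libraries shared 0 to 50 barcodes, at most 1.25% of the smaller library. Endothelial barcodes had at least 200 genes, at most 10% mitochondrial UMIs (unique molecular identifiers, each 1 captured transcript) and at least 3 of the 6 genes Cdh5, Pecam1, Egfl7, Esam, Tie1 and Kdr. In the order of age they numbered 5644, 6347, 3786, 4778 and 3154, with medians of 7158, 10469, 9017, 8468 and 4896 UMIs. Of 12 endothelial markers outside that rule all were detected in every library, with a summed level, in the order of age, of 3557, 5562, 13455, 11204 and 12990 CPM (UMIs of a gene scaled to a common total per library). Among the chromatin libraries the promoters of Cdh5, Pecam1, Egfl7, Esam, Tie1, Kdr and Cldn5 held a peak in all 37 endothelial lists, but many inputs held them too, at P6 from 5 of 16 (Pecam1) to 16 of 16 (Cldn5). That of the leukocyte gene Ptprc held one in endothelial lists in 1 of 11 at E12, 1 of 14 at P6 and 0 of 12 in adults. Promoters of genes of other cell types were not all without peaks in endothelial lists: that of the mural gene Pdgfrb held one in 9 of 11, 9 of 14 and 3 of 12, and that of the neuronal gene Map2 in 11 of 11, 14 of 14 and 9 of 12. Their part in the endothelial results was not tested.

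Promoter sequences are shown first, because they show the letters that the class I promoters share, the element that Bst2 has in common with B2m, and Ly6c1 as a promoter that has a CCAAT box but neither TGACG nor that element. RefSeq promoters (build GRCm38.p6) were matched for 6 of the 8 genes. The 250 bases before the start are given 5′ to 3′ on the gene's strand, for B2m on the plus strand at chr2:122147437-122147686, H2-D1 on the plus strand at chr17:35262844-35263093, H2-K1 on the minus strand at chr17:34000348-34000597, Bst2 on the minus strand at chr8:71537473-71537722 and Ly6c1 on the minus strand at chr15:75048838-75049087. For H2-K1 and Ly6c1, which have 2 listed starts each, the listed start farther upstream is used. The gene positions given below reach beyond that start for both. By those positions the H2-K1 stretch lies inside the gene and the Ly6c1 stretch partly inside it. Capitals mark the interferon-stimulated response element (GAAA, any 2 bases, GAAA), its shortened form GAANNGAAA, TGACG (the core of the cyclic AMP element) and CCAAT, on either strand, so that TTTCACTTC and ATTGG are matches read from the other strand.
B2m: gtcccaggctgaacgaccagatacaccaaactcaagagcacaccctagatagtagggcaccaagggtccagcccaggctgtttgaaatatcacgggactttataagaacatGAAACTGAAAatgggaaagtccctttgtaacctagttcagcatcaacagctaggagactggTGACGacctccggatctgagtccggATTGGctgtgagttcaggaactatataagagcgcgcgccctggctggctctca
H2-D1: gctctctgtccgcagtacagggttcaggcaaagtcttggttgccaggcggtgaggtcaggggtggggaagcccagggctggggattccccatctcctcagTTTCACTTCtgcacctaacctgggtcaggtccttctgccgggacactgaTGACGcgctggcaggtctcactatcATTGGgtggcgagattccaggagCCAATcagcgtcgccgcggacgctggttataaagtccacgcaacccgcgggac
H2-K1: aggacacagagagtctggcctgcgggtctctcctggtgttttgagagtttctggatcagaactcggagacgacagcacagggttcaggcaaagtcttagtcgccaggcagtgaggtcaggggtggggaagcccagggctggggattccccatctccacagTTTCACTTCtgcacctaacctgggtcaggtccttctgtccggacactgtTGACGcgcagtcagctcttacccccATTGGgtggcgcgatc
Bst2: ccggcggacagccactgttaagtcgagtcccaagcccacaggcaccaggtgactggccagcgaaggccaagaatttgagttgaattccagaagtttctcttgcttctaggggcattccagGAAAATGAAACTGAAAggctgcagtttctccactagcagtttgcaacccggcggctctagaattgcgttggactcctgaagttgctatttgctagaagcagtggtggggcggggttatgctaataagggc
Ly6c1: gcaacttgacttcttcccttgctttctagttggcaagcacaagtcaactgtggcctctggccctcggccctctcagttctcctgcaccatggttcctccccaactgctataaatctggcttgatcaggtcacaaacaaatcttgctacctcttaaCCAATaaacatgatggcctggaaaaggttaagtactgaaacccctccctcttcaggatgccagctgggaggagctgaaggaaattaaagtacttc

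The full interferon-stimulated response element was present in B2m and Bst2 and in 2.98% of 32851 promoters of 300 bases in the table. Bst2 holds it in 2 overlapping copies. The shortened form was found in H2-D1 and H2-K1 and in 6.31% of promoters. In all 3 class I promoters TGACG was followed after 20 bases by ATTGG, an arrangement in 30 of the 32851 promoters (0.0913%), belonging to 26 genes. The class I gene H2-M3 was the other member of the class I list among them, and no gene of the class II list was. This spacing was noticed in the letters above and is a description. Aligned at TGACG, the H2-K1 and H2-D1 stretches were identical at 166 of 190 bases (87.4%), with a longest identical run of 47 bases. Ly6c1 held a CCAAT box, as 33.8% of promoters do, and neither form of the interferon-stimulated element in the window. The Ifitm3 promoter, matched but not printed, held neither form of the element, no TGACG and no CCAAT in its window.

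Ly6a (chr15:74994877-74998031), which encodes the progenitor antigen Sca-1, went from near nothing to one of the most abundant transcripts. Its level was 0.503 CPM at E9.5 (23 UMIs, exact 95% Poisson interval 0.319 to 0.754), 3.42 CPM at E12.5, 184 CPM at E16.5, 385 CPM at P8 and 3496 CPM in the adult, where it ranked 20th of all genes by UMIs. UMIs count transcript ends and do not scale with transcript length. The levels follow the order of age, and no counting intervals of neighbouring ages overlapped. Within the sets Ly6a was 53.7-fold higher at E16.5 than at E12.5, 766-fold higher at P8 than at E9.5 and 9.08-fold higher in the adult than at P8 (counting interval 8.94 to 9.21). The spread between animals is not measured, since each age is 1 library, and the intervals cover counting error only.

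Ly6c1 (chr15:75044018-75048920, minus strand), a surface antigen of brain endothelium and of some leukocytes, took the same order. It measured 5.95 CPM at E9.5, 51 CPM at E12.5, 663 CPM at E16.5, 852 CPM at P8 and 4148 CPM in the adult, rank 16 there. The fold was 13 from E12.5 to E16.5, 143 from E9.5 to P8 and 4.87 from P8 to adult. Reads of its close copy Ly6c2 could be split differently by the authors' counting, which leaves both uncertain; Ly6c2 was listed at 0 to 6.09 CPM.

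Ly6e (chr15:74955025-74959904), a broadly made member that modifies virus entry, measured 13.9 CPM at E9.5, 61.8 CPM at E12.5, 499 CPM at E16.5, 399 CPM at P8 and 1369 CPM in the adult. Its order differed from that of Ly6a and Ly6c1, with E16.5 above P8, across the sets. The adult level was 3.43-fold that of P8, and E16.5 was 8.08-fold above E12.5.

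**Figure D1:**
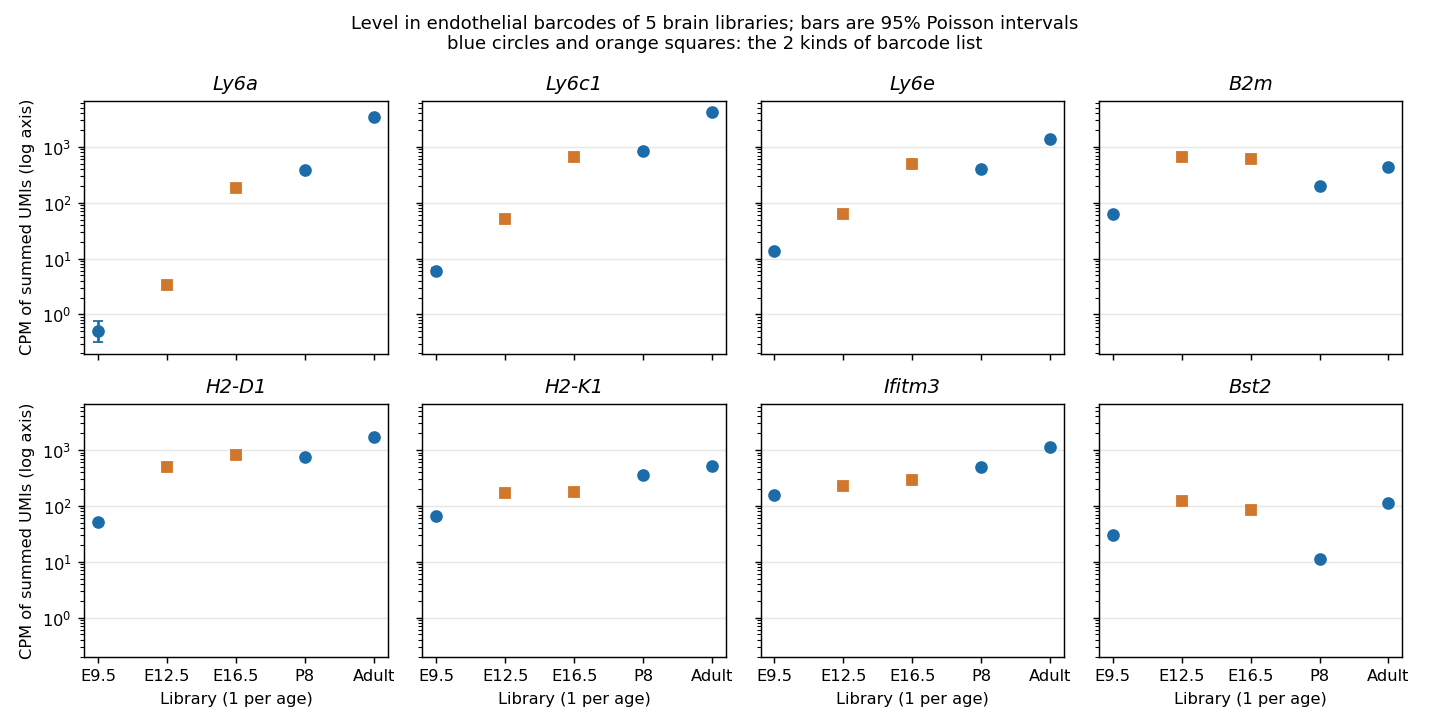
Level of each gene in endothelial barcodes of 5 brain libraries, in CPM of summed UMIs on a log axis, with ages along the horizontal axis. Points are single libraries with 95% Poisson intervals, and shapes mark the kind of barcode list. Ly6a runs from 0.503 to 3496 CPM, while B2m is highest at E12.5 and Bst2 lowest at P8.

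Class I genes were already well expressed at E12.5. B2m (chr2:122147687-122153082), the shared light chain, measured 61.8 CPM at E9.5, 656 CPM at E12.5, 599 CPM at E16.5, 202 CPM at P8 and 438 CPM in the adult. It was highest at E12.5, and the adult level was 2.17-fold that of P8. H2-D1 (chr17:35263094-35267497), a classical heavy chain, measured 52.2 CPM at E9.5, 496 CPM at E12.5, 822 CPM at E16.5, 764 CPM at P8 and 1698 CPM in the adult. The adult level was highest, 2.22-fold above P8. H2-K1 (chr17:33996012-34000619), the other classical heavy chain, measured 66.8 CPM at E9.5, 173 CPM at E12.5, 179 CPM at E16.5, 359 CPM at P8 and 529 CPM in the adult. Its counting intervals at E12.5 and E16.5 overlapped, and the adult fold over P8 was 1.47. Class I genes are near-identical to one another over long stretches, so the split of reads between H2-D1, H2-K1 and the H2-Q and H2-T genes is uncertain.

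Class I genes are made by leukocytes too, and leukocyte transcripts were present. In the adult library 69 barcodes with at least 3 leukocyte markers, none of the 6 endothelial genes and a median of 2900 UMIs held 2494 CPM of H2-D1, 1293 CPM of H2-K1 and 1242 CPM of B2m, each above the endothelial value, and 406 CPM of Bst2. At E12.5, 323 such barcodes held 1725 CPM of B2m, above the 656 CPM of endothelial barcodes, and 369 CPM of H2-D1, below their 496 CPM. The summed level of 15 leukocyte markers in endothelial barcodes was 99.5, 343, 90, 22.4 and 97.2 CPM in the order of age, and Cd3e was at 0 in the 3 embryonic libraries. B2m at E12.5 was 619 CPM in the 2356 endothelial barcodes without a leukocyte marker UMI, and still highest at that age. With endothelial barcodes that held no leukocyte marker UMI, a choice made after the data were seen, the adult folds over P8 were 2 for B2m, 1.96 for H2-D1 and 1.21 for H2-K1. With barcodes sharing leukocyte, neural or mural markers left out, also chosen after the data were seen, they were 1.82, 1.64 and 1.03, and the adult level of H2-D1 was 1207 CPM. Summed levels of 16 neural markers were 185, 232, 234, 450 and 713 CPM and those of 9 mural markers 163, 72.7, 137, 543 and 1409 CPM in the order of age. Leukocyte-marker barcodes also held Ly6e, at 304, 423, 161, 305 and 1238 CPM in the order of age. Those at E9.5 and E12.5 were above the endothelial level and that at E16.5 was below it. At P8 and in the adult they were lower, but their counting intervals (186 to 471 and 1094 to 1395) held the endothelial level. With marker-sharing barcodes left out, endothelial Ly6e was 7.71 CPM at E9.5 and 1411 CPM in the adult. The part of these other cells in the class I values was not tested beyond those folds, and their part in the Ly6e values was not tested.

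The interferon-induced genes differed from each other. Ifitm3 (chr7:141009590-141010744, minus strand) measured 155 CPM at E9.5, 228 CPM at E12.5, 294 CPM at E16.5, 504 CPM at P8 and 1154 CPM in the adult, in the order of age, with an adult fold over P8 of 2.29. Barcodes with mural markers and none of the endothelial genes held 1500 CPM of it at P8 (23 barcodes) and 554 CPM in the adult (36). With marker-sharing barcodes left out, endothelial Ifitm3 was 332 CPM at P8 and 751 CPM in the adult, a fold of 2.27. The part of mural cells was not tested. Bst2 (chr8:71534255-71537472, minus strand) measured 29.6 CPM at E9.5, 121 CPM at E12.5, 82.8 CPM at E16.5, 11 CPM at P8 and 114 CPM in the adult. It was lowest at P8, and its E12.5 and adult levels were the highest and close to each other; they come from different sets, tissues and dissociations, so their order is not read. The adult value of Bst2 was 10.3-fold above P8, the largest adult fold of the 8, and the P8 value was 2.69-fold below E9.5.

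As a group, 7 of the 8 genes were at least 2-fold higher in the adult than at P8, against 12.4% of 8285 genes with a mean of at least 10 CPM, and none was 2-fold lower, against 9.02%. H2-K1 was the one inside 2-fold. The count was 5 with barcodes without a leukocyte marker UMI, with marker-sharing barcodes left out, with thinned barcodes and with the mean over barcodes, and the genes not past 2-fold were then B2m, H2-D1 and H2-K1. With the removal that also used erythroid markers, which left 586 barcodes at P8 and 862 in the adult, it was 4, Ifitm3 falling to 1.73-fold. From E12.5 to E16.5 the 3 Ly6 genes were at least 2-fold higher and none of the 8 was lower, against 7.37% and 5.64% of 7875 genes. From E9.5 to P8, 7 were higher and Bst2 was lower, against 26% and 15.3% of 8013 genes. The median log2 fold of the 8 was 1.48 against 0.07 over all genes for adult over P8, 0.55 against -0.01 for E16.5 over E12.5, and 3.13 against 0.21 for P8 over E9.5. These values chose the genes, and nothing is read from the counts.

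Shares of barcodes with a UMI followed the levels once depth was made equal. With each barcode thinned to 1000 UMIs, leaving out 12 barcodes at E9.5, 31 at P8 and 58 in the adult, Ly6a was seen, in the order of age, in 0.0566%, 0.334%, 14.9%, 27.1% and 92.6% of barcodes. Before thinning the shares were 0.408%, 3.77%, 60.6%, 73.9% and 98.6%. In the adult the unthinned share of Ly6a was 14.5% in the leukocyte-marker barcodes (median 2900 UMIs) and 8.33% in 36 mural-marker barcodes (median 3516 UMIs), against a median of 4896 UMIs in endothelial barcodes. The source of Ly6a UMIs in those other barcodes was not tested. The thinned shares of Ly6c1 were 0.611%, 4.9%, 44.3%, 52.1% and 94.9%, and its unthinned adult share was 99.1% against 11.6% in leukocyte-marker barcodes. Thinned shares of B2m were 6.33%, 46.5%, 44.4%, 19% and 31%, and those of H2-K1 6.65%, 15.4%, 15.8%, 28.1% and 29.6%. H2-K1 was thus seen in nearly equal shares at P8 and in the adult, and its median level per barcode was 285 CPM at P8 and 284 CPM in the adult, while the summed level was higher in the adult.

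The number of the 8 genes seen per barcode follows from these shares and is no separate sign of joint expression. After thinning, at least 4 of the 8 had a UMI in 0.0355%, 3.17%, 18.9%, 18.1% and 76.7% of barcodes in the order of age. None of the 8 was seen in 67.9%, 21.6%, 6.21%, 6.64% and 0.129%. All 8 were seen in 25 adult barcodes and in 0 barcodes of the other libraries. Ly6a, Ly6c1 and Ly6e showed the narrowest relative spread in the adult. The middle 80% of adult barcodes with at least 1000 UMIs, from the 10th to the 90th percentile, ran from 1477 to 5745 CPM for Ly6a, from 1761 to 7687 CPM for Ly6c1 and from 563 to 2271 CPM for Ly6e, against 316 to 2836 CPM for H2-D1, 0 to 971 CPM for H2-K1 and 0 to 2094 CPM for Ifitm3. B2m ran from 0 to 864 CPM and Bst2 from 0 to 327 CPM. Adult barcodes with the gene held a mean of 26.1 UMIs for Ly6a, 30.8 for Ly6c1 and 10.3 for Ly6e. That mean was 13.3 for H2-D1, 10 for Ifitm3, 5.49 for H2-K1, 4.21 for B2m and 2.03 for Bst2. Low counts widen such ranges, and their part was not tested.

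**Figure D2:**
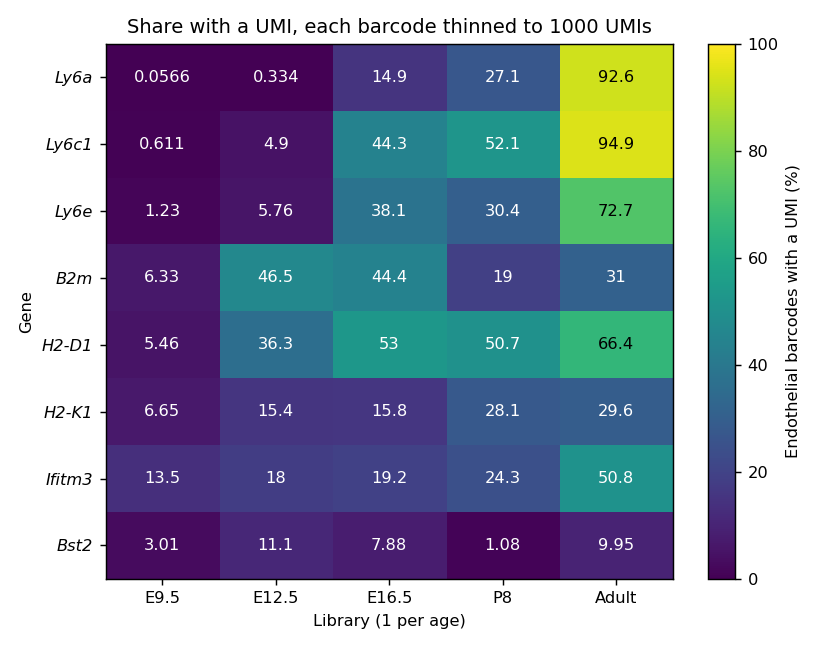
Share of endothelial barcodes with at least 1 UMI of each gene (rows) in each brain library (columns), in percent, after thinning every barcode to 1000 UMIs. Ly6a and Ly6c1 reach 92.6% and 94.9% in the adult, and Bst2 is lowest at P8 (1.08%).

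Endothelial barcodes were also split by vessel markers, with at least 3 of 10 arterial or 10 venous genes and at most 1 of the other kind. These classes are ranges of a score and not cell types, and 1564 adult and 3725 P8 barcodes had 2 or 3 markers of a kind, next to the limit. Ly6c1 in the adult was 5947 CPM in 328 arterial-marker barcodes, 2694 CPM in 457 venous-marker barcodes and 4334 CPM in the remaining 2369. Ly6a showed the same order at 4153, 2708 and 3633 CPM. At P8 the order held, with Ly6c1 at 2003 CPM in 208 arterial-marker, 601 CPM in 1036 venous-marker and 894 CPM in the remaining barcodes, and Ly6a at 843, 333 and 387 CPM. Ifitm3 in the adult measured 1312 CPM in the arterial-marker, 772 CPM in the venous-marker and 1238 CPM in the remaining barcodes. H2-D1 in the adult was highest in the remaining barcodes, at 1838 CPM, against 1654 CPM arterial and 1195 CPM venous. B2m measured 473 CPM in the arterial-marker and 340 CPM in the venous-marker adult barcodes, and H2-K1 449 and 393 CPM. Both H2-K1 values lay below its 529 CPM over all adult endothelial barcodes, so the remaining barcodes were highest for it too. Ly6e differed least, at 1430 CPM in arterial-marker and 1349 CPM in venous-marker adult barcodes, with overlapping intervals (1377 to 1485 and 1315 to 1383). Bst2 measured 114 and 95.3 CPM, and its intervals overlapped as well (99 to 130 and 86.5 to 105). Median UMIs were 5312 in the arterial-marker and 7643 in the venous-marker adult barcodes, and cells of 1 library are not replicates.

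**Figure D3:**
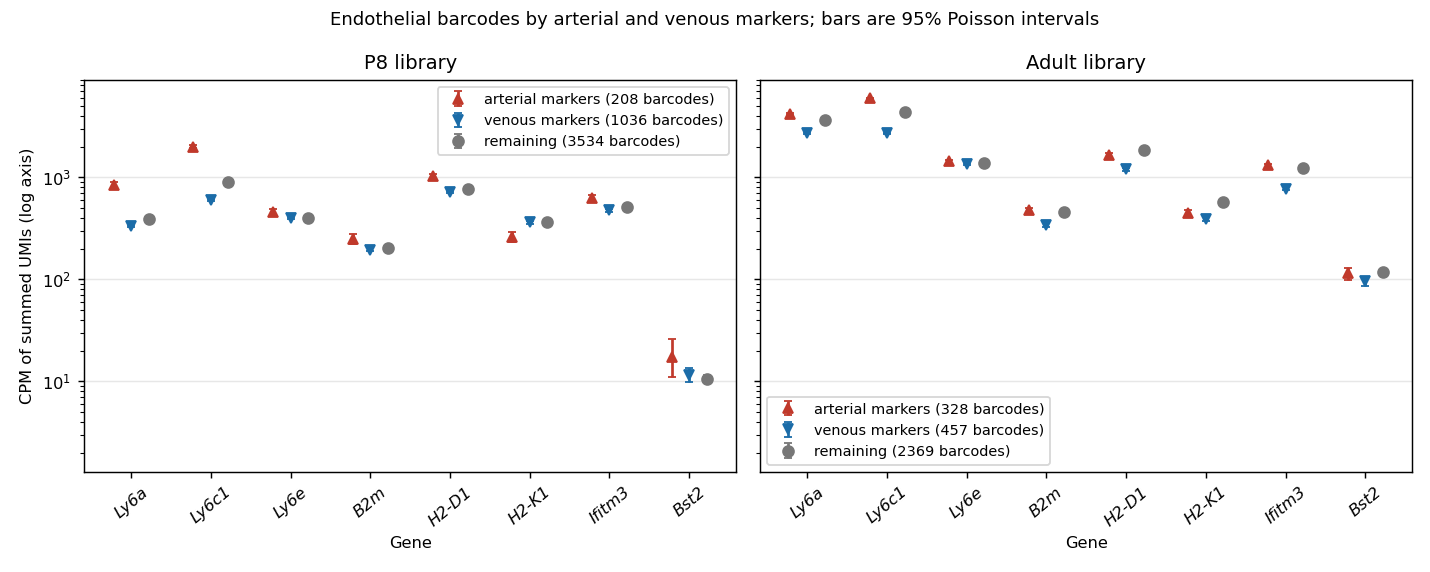
Level of each gene (horizontal axis) in CPM on a log axis, in endothelial barcodes with arterial markers, with venous markers and remaining, at P8 (left) and in the adult (right). Bars are 95% Poisson intervals. Ly6c1 and Ly6a are higher in arterial-marker than venous-marker barcodes in both libraries.

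Other genes of the same pathways were counted from lists, by the same 2-fold rule, which a gene can pass through the later library alone. The lists were chosen with earlier results of these data known, and each age is 1 library. The counts here and for the lists below are therefore a description. Of 27 interferon-stimulated genes tested besides Bst2, 25 were at least 2-fold higher in the adult than at P8, against 12.4% of all genes, and none was lower, against 9.02%. Of the 27, 11 were under 10 CPM at P8 and were tested only through their adult level, so that they had to be higher; of the 16 at 10 CPM or more at P8, 14 were 2-fold higher, against 690 of 7762 genes. Isg15, a ubiquitin-like modifier, went from 12.9 CPM at P8 to 184 CPM in the adult, Ifi27 from 41.3 to 194 CPM and Gbp7, a guanylate-binding protein, from 81.7 to 181 CPM. The count was 25 without leukocyte-marker UMIs, against 1024 of 8285 genes, and 23 without marker-sharing barcodes, against 1030 of 8285 genes. From E12.5 to E16.5 only Gbp7 of the 10 tested was 2-fold higher, near the 7.37% of all genes, and from E9.5 to P8, 7 of 9 were, against 26%. Genes under 10 CPM at E9.5 were tested only through P8 and had to be higher. Among the 7 these included Ifi27 and Gbp7, at 1.11 and 3.83 CPM at E9.5, so nothing is read from that count.

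Of 17 receptors and factors of interferon signalling tested, 5 were higher in the adult than at P8 (Il10rb, Stat2, Irf1, Irf9 and Socs3), against 12.4% of all genes, and Ifngr2, a chain of the interferon-gamma receptor, was lower, against 9.02%. Of the 16 at 10 CPM or more at P8, 4 were higher, against 690 of 7762 genes. The median log2 fold of the 17 was 0.61 against 0.07 over all genes. Irf2 had the highest adult level of the list, at 195 CPM against 102 CPM at P8, and Ifnar1, a chain of the type I receptor, was 167 CPM at P8 and 166 CPM in the adult. From E9.5 to P8, 11 of 15 were higher, both Ifnar chains among them, against 26% of all genes, and from E12.5 to E16.5, 7 of 16, against 7.37%. Some of the 11 were under 10 CPM at E9.5 and were tested only through P8, such as Il10rb at 6.25 CPM. Nothing is read from that count.

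Of 9 further class I genes tested, 5 were higher in the adult than at P8, against 12.4% of all genes (H2-Q4, H2-Q6, H2-Q7, H2-T23 and H2-T24). Of those 5, 4 were under 10 CPM at P8 and were tested only through their adult level. Of the 5 class I genes at 10 CPM or more at P8, 1 was higher, against 690 of 7762 genes. Of 13 genes of peptide loading, 6 were higher, against the same 12.4%, namely the transporter chain Tap2, Tapbp, Tapbpl and the immunoproteasome chains Psmb8, Psmb9 and Psmb10. Of the 11 at 10 CPM or more at P8, 5 were higher, against 690 of 7762 genes. The chaperone Calr was inside 2-fold, at 648 CPM at P8 and 427 CPM in the adult. The summed level of 7 MHC class II genes, which leukocytes make, was 1.16 CPM at E9.5, 4.98 CPM at P8 and 41.1 CPM in the adult; its part in the class I values was not tested. In the Ly6 family, 3 of 5 further genes were higher, against 12.4% of all genes (Lynx1, Lypd1 and Cd59a), with a median log2 fold of 1.86 over the 5. Lynx1, at 4.93 CPM at P8, was tested only through its adult level. Of the 4 at 10 CPM or more at P8, 2 were higher, against 690 of 7762 genes. With marker-sharing barcodes left out 2 of the 5 were higher, against 1030 of 8285 genes, and the median was -0.41, the opposite direction. Gpihbp1, which carries lipoprotein lipase across endothelium, was lower, at 22.3 CPM at P8 and 2.97 CPM in the adult. Ifitm2 and Ifitm1 were both higher in the adult than at P8, against 12.4% of all genes, but only 1 of them with marker-sharing barcodes left out. Ifitm2 was highest at E9.5, at 613 CPM.

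The profiles most like the mean of the 8 genes were sought among 4835 genes with at least 50 CPM in 1 library, by the root mean square difference of centred log2(CPM + 10) over the 5 libraries. Mcf2l was nearest at 0.199, with 2.36 CPM at E9.5 and 257 CPM in the adult, followed by Ccdc85a at 0.234 and Kbtbd11 at 0.237. Tsc22d3, Serinc3, Nfkbia, Gdpd3, Slc6a6, Igf1r and, at 0.32, the interferon-stimulated gene Ifi27 completed the first 10. The 8 genes themselves lay between 0.469 (H2-D1) and 1.78 (Ly6a) from their own mean.

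Accessible chromatin was read as the presence of a peak within 1 kb of the gene start in each list. Ly6a and Ly6e have no listed start, so both gene ends counted. The lists hold 19437 to 144132 peaks from sequencing depths of 10.1 to 59.1 M tags, and adult endothelial lists are the shortest at 19437 to 47306 peaks. Of 21627 genes 36.5% held a promoter peak in all 66 lists. B2m, H2-D1 and H2-K1 were among them. Ly6e and Bst2 held one in 65 of 66 lists, each missing from 1 of 2 adult retina inputs. The promoters of these 5 genes were thus read as open in all 37 endothelial lists, as were those of 41.2% of all genes. In a bulk preparation more cells of a type and more open copies per cell cannot be told apart.

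The other 3 genes varied. Ly6c1 held a promoter peak in 14 of 14 P6 endothelial and 7 of 16 P6 input lists (exact permutation test within organs, p = 0.000417, Benjamini-Hochberg adjusted p = 0.102 over all genes). Ly6a held one in 13 of 14 against 8 of 16 and Ifitm3 in 13 of 14 against 9 of 16 (exact permutation p = 0.01 and adjusted p = 0.31 for each). None passed the threshold of 0.05, and 0% of genes did, with 1351 genes at an unadjusted p under 0.05. In adults the same comparison gave 12 of 12 against 7 of 10 for Ly6c1 (exact permutation p = 0.0556, adjusted p = 1), 10 of 12 against 6 of 10 for Ly6a (p = 0.278, adjusted p = 1) and 11 of 12 against 6 of 10 for Ifitm3 (p = 0.153, adjusted p = 1). Here too 0% of genes passed, with 686 at an unadjusted p under 0.05. The smallest adult p over all genes was 0.000514 by that test, so the few adult libraries leave little room for a call. Between adult and P6 endothelial lists none of the 8 promoters was called, against 0.62% of genes called lower and 0% higher in adults.

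By organ, Ly6a, Ly6c1 and Ifitm3 were alike in some inputs and differed in several other groups. All 3 lacked a promoter peak in 3 of 3 P6 brain, 3 of 3 P6 retina, 1 of 1 adult brain and 2 of 2 adult retina inputs, and all 3 held one in 3 of 3 P6 lung and 3 of 3 P6 kidney inputs. Brain endothelial lists held the Ly6a and Ly6c1 peaks in 3 of 3 at E12, 3 of 3 at P6 and 2 of 2 in adults. Ly6a was without a peak in 2 of 2 adult and 1 of 2 P6 liver endothelial lists, where Ly6c1 held one in all 4. At E12, where labels allow too few arrangements for an adjusted test, both were absent from 4 of 4 heart and present in 3 of 4 trunk endothelial lists, while Ifitm3 held a peak in all 11 E12 endothelial lists. Ifitm3 was missing from P6 brain endothelial 1, the shortest P6 list with 27136 peaks, and from 1 of 2 adult lung endothelial lists. In adult brain endothelial 1 its only promoter peak was a weak one (−log10 q of 1.3) in the gene body.

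**Figure D4:**
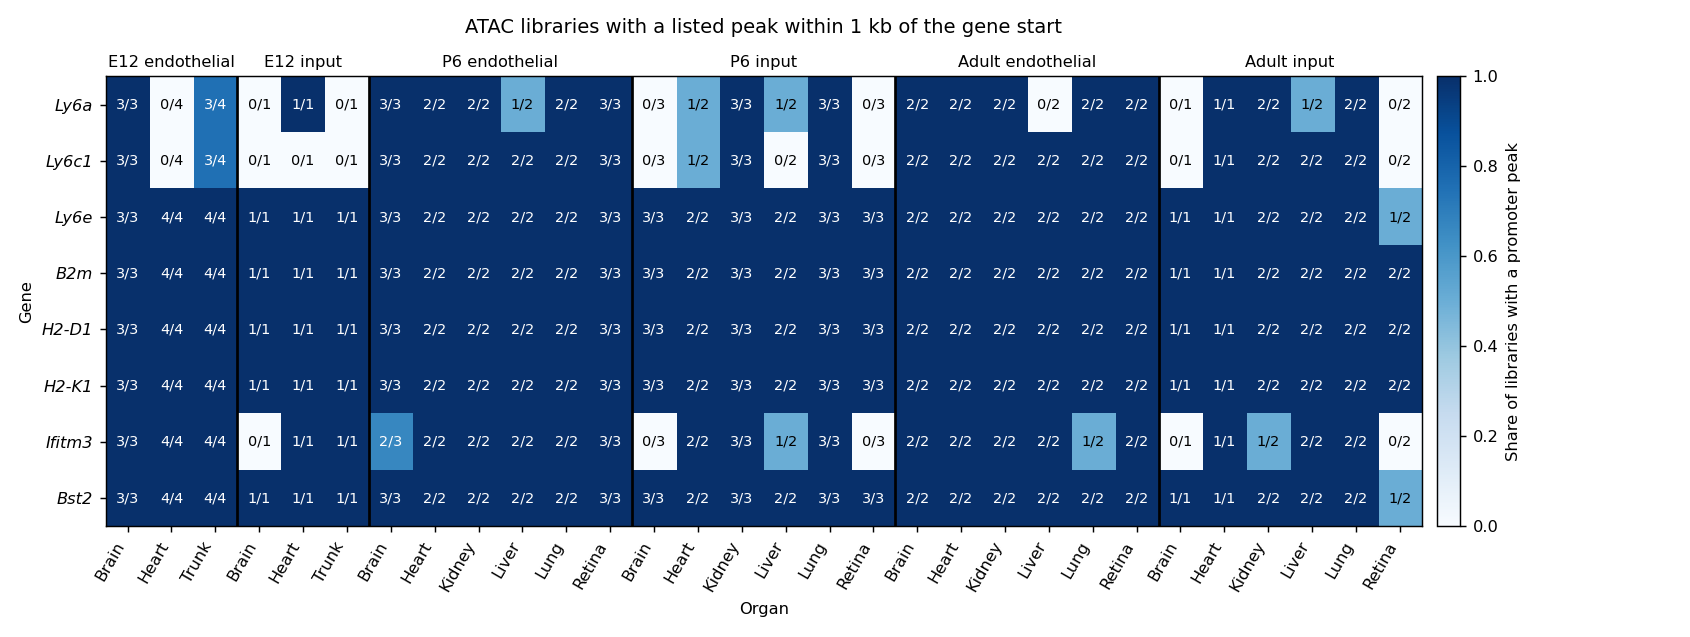
ATAC libraries with a listed peak within 1 kb of the start of each gene (rows), by age, preparation and organ (columns); numbers are libraries with a peak over libraries, and colour is their share. B2m, H2-D1 and H2-K1 are full in all columns, and Ly6a, Ly6c1 and Ifitm3 are empty in brain and retina inputs.

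Peak strength in brain endothelial lists, which is the authors' own value and is read only within a list, placed the class I promoters above most peaks of each list. The B2m peak stood above 93.1%, 91.8% and 86.7% of peaks in the 3 E12 lists, 90.2%, 95.4% and 94.5% in the P6 lists and 88.9% and 93.2% in the adult lists. The H2-D1 peak stood above 70.2% to 92.6% and the H2-K1 peak above 73.4% to 94.7% of peaks over the 8 lists, and the Bst2 peak above 66.8% to 97.8%. The Ly6c1 peak stood above 18.5%, 38.9% and 50% of peaks at E12, 60.4%, 47.5% and 72.3% at P6 and 65% and 68% in the adult, and the Ly6a peak above 12.7%, 31.4% and 55.1%, then 54.9%, 55.1% and 80.9%, then 63.8% and 40.7%. The lists differ in length, so these ranks show no change with age.

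Beyond promoters, 182 peak regions lay within 50 kb of the 8 genes, 14 of them present in all 66 lists. At P6, 6 of the 182 were more often present in endothelial than in input lists, against 0.856% of 364093 regions called higher and 0.207% lower. These shares are 3116 regions higher and 755 lower, and with equal numbers of top peaks 2729 were higher and 55 lower. In adults 0% of regions were called in either direction by the exact test, with 9460 at an unadjusted p under 0.05, and between adult and P6 endothelial lists 0.281% were called lower and 0% higher, none near these genes. With fewer libraries, the smallest adult p of endothelial against input was 0.000257 by that test, against 6.94e-07 at P6. The lack of adult calls is therefore no contrast with P6.

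Near Ly6c1 the region over the start, chr15:75048577-75049303, was present in 14 of 14 P6 endothelial and 6 of 16 P6 input lists (exact permutation p = 0.000139, adjusted p = 0.0296). The inputs with it were the 3 of lung and the 3 of kidney. Without P6 kidney endothelial 1 the adjusted p was 0.0518. A second region, chr15:75055052-75055921, centred 6649 bases upstream of the start, was present in 12 of 14 against 1 of 16 (exact permutation p = 3.75e-05, adjusted p = 0.0205), and stayed called whichever library was left out. It was found in 9 of 11 E12 endothelial and 0 of 3 E12 input lists, and in 5 of 12 adult endothelial against 1 of 10 adult input lists (exact permutation p = 0.25, adjusted p = 1). Among P6 endothelial lists it was missing from 1 of lung and 1 of liver. Neither call held with equal numbers of top peaks, where adjusted p was 0.139 at the start and 0.189 upstream, with a stricter q (0.115 and 0.155) or at 50% cover of the region (0.0529 and 0.325). With read processing added to the organ as stratum the adjusted p was 0.0544 at the start and 0.0416 upstream, so that the upstream call held there. With same-numbered libraries of an organ as blocks (the replicate block), which left no region of the genome called, the adjusted p was 0.698 for both. Neither call held in that setting.

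**Figure D5:**
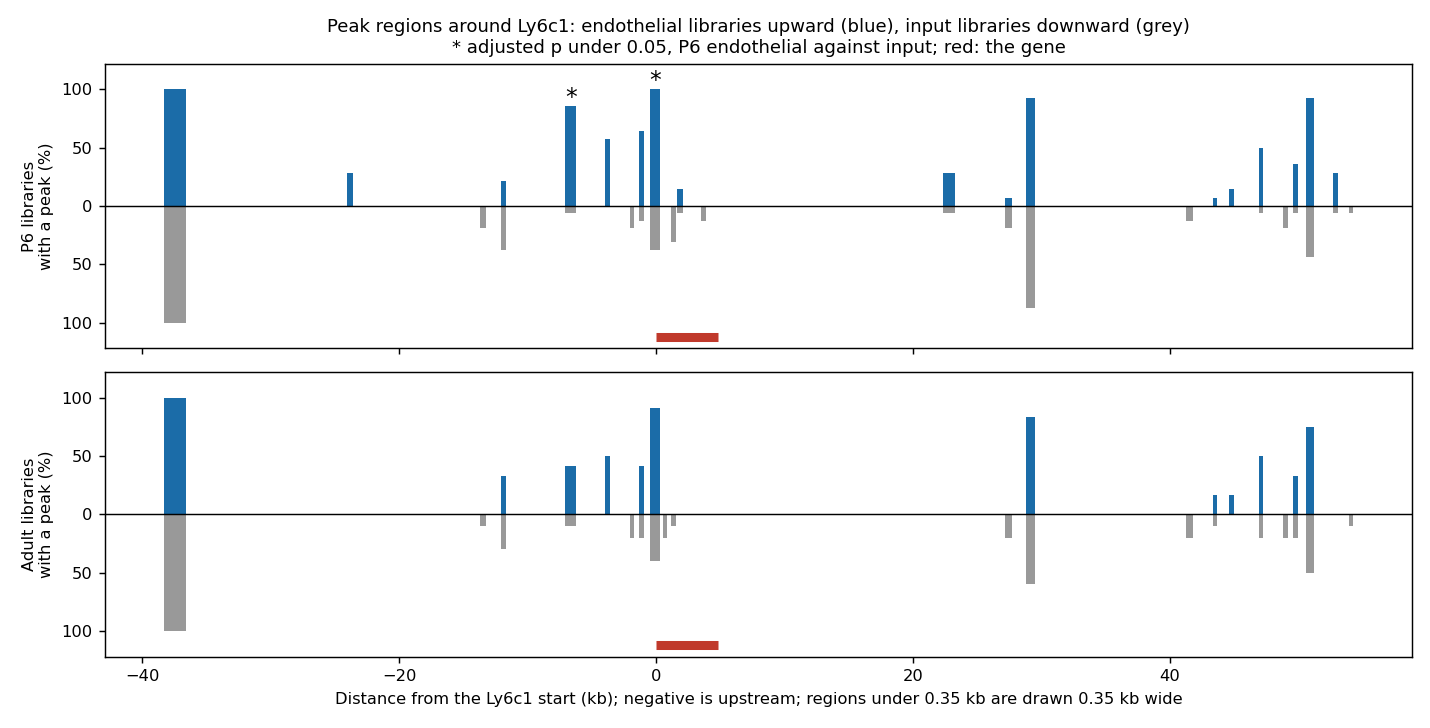
Peak regions around Ly6c1 by distance from its start in kb, as the percent of libraries with a peak, endothelial upward and input downward, at P6 (top) and in adults (bottom); the red bar is the gene and stars mark adjusted p under 0.05 at P6. The regions at the start (100% against 37.5%) and 6649 bases upstream (85.7% against 6.25%) carry the stars.

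Near Ly6e the region chr15:74921304-74921899, outside the gene, was present in 14 of 14 P6 endothelial and 6 of 16 P6 input lists (exact permutation p = 0.000208, adjusted p = 0.0346). The adult lists held it in 12 of 12 against 4 of 10 and were not called (exact permutation p = 0.00463, adjusted p = 1), though the few adult libraries leave little room for a call. E12 brain and trunk endothelial lists all held it. Leaving out any 1 of 8 libraries ended the P6 call: adjusted p was 0.0575 without heart input 1, 0.0539 without kidney endothelial 1, 0.0587 and 0.0517 without kidney input 2 and 3, 0.0517 and 0.0503 without retina endothelial 1 and 3, and 0.0503 and 0.0501 without retina input 1 and 2. With equal numbers of top peaks the adjusted p was 0.00561, with a stricter q 0.02, and at 50% cover of the region 0.0269. With read processing added to the organ as stratum it was 0.0662, and with the replicate block 0.698, each of which ended the call.

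Near Bst2 the 3 called regions lay outside the gene, and 2 of them lay within 1 kb of the starts of other genes. The region near the start of Plvap, which forms diaphragms of endothelial pores, chr8:71511165-71512128, was present in 13 of 14 P6 endothelial and 5 of 16 P6 input lists (exact permutation p = 0.000333, adjusted p = 0.0399). The region near the start of Ccdc194, chr8:71526221-71526967, was present in 12 of 14 against 3 of 16 (exact permutation p = 0.000375, adjusted p = 0.0436). The region chr8:71528044-71529065, centred 8918 bases downstream of the Bst2 start, was present in 14 of 14 against 7 of 16 (exact permutation p = 0.0005, adjusted p = 0.047), and in 11 of 12 against 4 of 10 in the adult lists (exact permutation p = 0.0139, adjusted p = 1). These calls lay close to the threshold of 0.05 and ended in most leave-outs of 1 library. The first ended in 22 of 30 leave-outs, the second in 22 and the third in 28, with adjusted p up to 0.0799, 0.077 and 0.0957. The first stayed called without brain endothelial 1, kidney input 1, liver input 3, lung endothelial 1 or 2, or any lung input, the second without brain endothelial 1 or 2, heart input 2, kidney input 1, liver input 3 or any lung input, and the third without kidney input 1 or liver input 3. The Plvap call also ended with equal numbers of top peaks (0.168), at 50% cover (0.531) and with read processing in the stratum (0.0662). The Ccdc194 call ended with equal numbers of top peaks (0.714), a stricter q (0.559) and 50% cover (1), and the third with read processing (0.133). All 3 ended with the replicate block (0.698). No region near Ly6a, B2m, H2-D1, H2-K1 or Ifitm3 was called in any of the 3 comparisons.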

How the data were processed

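Of 125 samples, the 66 ATAC-seq and 5 single-cell libraries were used; the 54 bulk RNA-seq libraries were not analysed here. Groups came from sample titles. The 8 genes and the gene lists were chosen with earlier results of these data known.

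The deposited single-cell matrices hold UMI counts per gene and barcode, written by Cell Ranger 4.0.0 in 3 of the 5 libraries, per the file headers. The submitters' processing notes also name Seurat 4.0.4, Bowtie2, SAMtools 1.13, Picard and mm10. Rows of the E16.5 matrix were named by the gene table of the other libraries (correlation of log levels 0.978 in that order against at most 0.206 when shifted by 1 row). Peaks were called by the authors with MACS2 2.1.2 in broad mode, per library and without a control, per the file headers. The deposited lists give each peak's signal (pileup), fold over local background and −log10 of its p and q.

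UMIs were summed over endothelial barcodes as CPM with exact Poisson intervals of 95%. No doublets were removed, and the alternatives left out marker-sharing barcodes. Barcodes of another class had at least 3 of its markers and none of the 6 endothelial genes. Genes past 2-fold among those with a mean of at least 10 CPM were counted. All 8 genes are named, and of each list the 3 with the highest adult CPM may be; others are named where they are the genes counted. Peak presence was tested for 21627 genes and for 364093 regions (covered in at least 2 libraries) by an exact two-sided permutation test within organs, adjusted by Benjamini-Hochberg, and checked on simulated data. Gene positions came from RefSeq (GRCm38.p6). Python 3.11.15, numpy 2.4.6 and scipy 1.17.1 were used. Intervals cover counting error only.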

Additional observations from a re-analysis of the deposited data

Results flagged for a closer look

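Groups of 4 libraries were examined for one library apart from the rest, for the 8 promoters and the 6 called regions, 28 groups in all, of which 4 held one. For continuous values chance marks about 1 in 20 groups; that rate does not hold for presence or absence, where any split of 3 against 1 is marked. E12 trunk endothelial 2 lacked the Ly6a promoter peak, the Ly6c1 promoter peak and the region over the Ly6c1 start, each present in 3 of the 4 trunk libraries. E12 heart endothelial 4 held the region near Ly6e, present in 1 of the 4 heart libraries.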

How the results depend on the processing

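The number of the 8 genes highest in the adult brain was 6 under every alternative. That count ranks libraries across barcode sets, tissues and dissociations, which no alternative changes, so nothing is read from it. Adult over P8 folds ranged from 8.92 to 9.63 for Ly6a, 4.28 to 4.91 for Ly6c1, 3.37 to 3.75 for Ly6e, 1.82 to 2.23 for B2m, 1.58 to 2.3 for H2-D1, 1.01 to 1.54 for H2-K1, 1.73 to 2.5 for Ifitm3 and 9.85 to 10.5 for Bst2; 37 of 80 such values lay outside the counting interval. The planned removal of marker-sharing barcodes included erythroid genes, whose UMIs were found in most barcodes, so versions without them and without leukocyte-marker UMIs were added after the data were seen. Promoter calls of endothelial against input at P6 went from 0 to 81 with equal numbers of top peaks and 13 with a stricter q. The 134 promoters and 1022 regions lower in adult than P6 endothelial lists fell to 0 with equal numbers of top peaks, a stricter q, organ and read processing as stratum or the replicate block, and the regions also to 0 with peaks covering 50% of the region. Leaving out 1 library gave 0 (either adult retina endothelial library) to 339 promoters (without P6 brain endothelial 1), and 0 to 3483 regions (without P6 brain endothelial 1). The 3871 regions called at P6 became 2041 with the stricter q, 1242 at 50% cover and 2035 with read processing, 2784 with equal numbers of top peaks, of which 638 were among the 3871, and 844 (without P6 kidney endothelial 1) to 3743 when 1 library was left out, 22 of 30 such counts moving over 1.5 times. Adult endothelial against input gave 0 promoters and 0 regions in each leave-out, as did P6 promoters. Deviations of same-numbered endothelial and input libraries correlated at -0.152 to 0.143 for promoters (5 of 20 pairs over 0.1) and -0.169 to 0.18 for regions (4 of 20). Where both kinds have 2 libraries, both pairs give the same value by construction. These values do not settle whether the numbers pair the samples. The replicate block left 0 of the 3871 regions called, with a smallest exact permutation p of 0.000488. Of 210 alternatives for the 6 called regions 102 ended the call. The tests of the 8 promoters changed no call in 744 alternatives, but promoters with a peak in all or nearly all lists left little to change. The causes of these changes were not tested. Equal numbers of top peaks use fewer peaks of the deeper lists.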
